A study of Mus musculus with 18 samples.

Results

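The IFIT and OAS antiviral families were followed through 8 mouse genes, Ifit1, Ifit2, Ifit3, Oas1a, Oas2, Oas3, Oasl1 and Oasl2. They were chosen by symbol, and all 8 were found among the 45706 genes of the deposited count table. Poly(A) RNA was sequenced from bone marrow-derived macrophages of C57BL/6 mice, which are macrophages grown in culture from marrow cells, here with 30% L929-conditioned medium. The groups were 9 wild-type (WT) and 9 RelA-TA-KI libraries, the second carrying a knock-in of the NF-kB subunit gene Rela. In each genotype 1 library came from unstimulated cells, 4 from cells given lipopolysaccharide (LPS, 100 ng/ml) for 0.5, 1, 3 or 8 h, and 4 from cells given tumour necrosis factor (TNF, 10 ng/ml) for the same times. Stimuli were added on day 7 of culture. The labels give an age of 12 days without saying of what, do not state which residues the knock-in changes, and name no separate animals, so genotype and culture cannot be told apart.

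The interferon pathway is the setting of these genes. LPS binds the receptor TLR4, which signals through NF-kB and, by way of the adaptor TRIF, through the kinase TBK1 and the factor IRF3, and these together switch on the interferon beta gene Ifnb1. Secreted interferon then acts on its receptor and activates STAT2, IRF9 and their partners, which bind the interferon-stimulated response element (ISRE) in target promoters. Some IFIT genes can also be switched on by IRF3 without interferon. IFIT proteins are built of tetratricopeptide repeats and bind RNA or other IFIT proteins, and Ifit1 blocks translation of RNAs that lack the cap methylation of the host. OAS enzymes bind double-stranded RNA and make oligoadenylates, which serve as a second messenger. The OAS-like protein Oasl1 lacks this activity and, in mice, represses translation of Irf7, whereas mouse Oasl2 keeps it.

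The ISRE core was searched in the promoters because these genes rose together. The motif was GAAA, any 2 bases and GAAA again, which reads TTTC, any 2 bases and TTTC on the other strand. It was searched in windows of 300 bases that cover each RefSeq start and lie mostly before it (build GRCm38.p6). A window was on hand for 7 of the 8 genes, and 4 of these 7 held a match, against 3.44% of all 32851 windows (1131 windows). Below are the 160 bases before the start of those 4 genes, read in the direction of transcription, with each match in capitals. They lie at chr19:34640729-34640888 (plus strand, Ifit1), chr19:34583369-34583528 (plus, Ifit3), chr5:120907526-120907685 (minus, Oas1a) and chr5:120777660-120777819 (minus, Oas3).
Ifit1: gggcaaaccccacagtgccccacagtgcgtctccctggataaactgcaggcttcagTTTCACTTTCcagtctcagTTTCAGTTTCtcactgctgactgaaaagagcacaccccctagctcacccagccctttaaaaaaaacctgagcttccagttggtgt
Ifit3: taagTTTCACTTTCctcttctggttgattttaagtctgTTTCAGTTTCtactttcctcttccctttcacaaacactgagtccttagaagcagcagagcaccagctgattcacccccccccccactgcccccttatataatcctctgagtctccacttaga
Oas1a: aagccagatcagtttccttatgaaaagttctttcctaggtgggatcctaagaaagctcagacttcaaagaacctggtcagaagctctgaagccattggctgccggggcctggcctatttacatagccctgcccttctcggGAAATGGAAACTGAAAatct
Oas3: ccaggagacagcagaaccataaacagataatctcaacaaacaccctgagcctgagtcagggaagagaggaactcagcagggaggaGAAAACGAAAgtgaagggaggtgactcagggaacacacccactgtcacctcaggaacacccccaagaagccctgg

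The matches begin 104 and 85 bases before the start in Ifit1 and 156 and 122 bases before it in Ifit3. The letters of the farther match are the same in both genes, and so are those of the nearer one. In Oas1a a pair of overlapping matches begins 20 and 14 bases before the start, and in Oas3 a single match begins 75 bases before it. Ifit2, with 2 windows, Oasl1 and Oasl2 held no match, and Oas2 had no window. The looser kB motif of NF-kB, GGG, any 5 bases and CC, or its reverse complement, was found in 5 of the 7 genes and in 50.8% of all windows. A match is a description of the letters and not a bound site.

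Libraries held 4663650 to 6721917 counts, and 13774 to 15261 genes were detected in each, fewer in the knock-in in 9 of 9 pairs. Levels are given in CPM, which are counts relative to the library total scaled by its TMM factor. With 1 library per genotype and condition, edgeR's quasi-likelihood test used condition as a block and took its spread from how the 9 genotype pairs differed, and p-values measure only that spread. Genes were called at an adjusted p under 0.05 over 11308 tested genes, all 8 family genes among them. Standard errors were worked back from the test and are approximate. The summed macrophage markers stood at 9230 to 12400 CPM in WT and 8820 to 12200 CPM in knock-in libraries. When CPM were scaled by the plain library total, the median of all genes moved, for example from -0.04 to -0.99 on the log2 scale at 8 h of LPS. The split of called genes moved too, from 4047 higher and 4112 lower to 1973 and 7853 for the LPS response, from 1893 and 1541 to 1322 and 2853 for TNF, from 2681 and 2848 to 1172 and 7057 for LPS against TNF, and from 1162 and 1070 to 705 and 1823 for genotype. No call of a family gene changed direction under any scaling or other alternative.

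Some counts are shared with near-identical neighbours. Of the stretches of 50 bases, the read length, in the exons of Ifit3, 51.2% also occur in Ifit3b, 57.6% of those of Oas1a occur in Oas1g, and 7.06% of those of Ifit1 in Ifit1bl2. How such reads were assigned is not stated, so the counts of Ifit3 and Oas1a in particular are uncertain. Oasl1 overlaps the antisense gene Gm13822 by 38 bases. The IFIT genes lie together on chromosome 19, Ifit2 (ENSMUSG00000045932.10) at 34550694 to 34576419, Ifit3 (ENSMUSG00000074896.3) at 34583531 to 34588731 and Ifit1 (ENSMUSG00000034459.8) at 34640871 to 34650009 (mm10). Oas2, Oas3 and Oas1a lie on the minus strand of chromosome 5 between 120730333 and 120907521, and Oasl2 and Oasl1 on its plus strand between 114896936 and 114937915.

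Before stimulation all 8 genes were transcribed at low levels and together held 0.0149% of the WT and 0.0220% of the knock-in counts. Per kilobase of exon, Oas1a was the highest, at 7.68 CPM per kb in WT and 12.9 in knock-in cells, followed by Oas3 (6.21 and 9.87) and Ifit2 (6.30 and 7.67). These 3 stood above the rest, and their genotype ranges overlapped. Oas2 (2.70 and 4.91), Oasl2 (2.50 and 4.30), Ifit1 (2.75 and 2.36) and Ifit3 (2.13 and 2.88 CPM per kb) formed a lower group in which each overlapped its neighbour in the order. Oasl1 was the lowest, at 0.664 and 1.99 CPM per kb, on 14 and 29 counts.

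LPS raised all 8 genes in both genotypes, the IFIT genes and Oasl1 far more than the OAS genes. At 8 h the 8 genes held 1.88% of the WT and 2.64% of the knock-in counts. All 8 passed the test over the 4 times upward, where 35.8% of all genes did, and all 8 rose by 4 or more on the log2 scale, as did 4.2% of all genes. Their median largest change was 7.71 on the log2 scale, against -0.196 over all genes tested.

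Ifit1 had the largest change of the 8 at 1 h. In WT cells it went from 7.30 CPM to 7.40, 137, 5046 and 4284 CPM after 0.5, 1, 3 and 8 h of LPS. In knock-in cells it went from 6.28 CPM to 14.6, 229, 9002 and 7169 CPM. Both courses had their highest library at 3 h, where the log2 fold change was 9.91 ± 0.41 (adjusted p = 1.1e-08, 2 libraries each).

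Ifit2 reached the highest level of the 8. It stood at 24.7 CPM in unstimulated WT cells and at 25.4, 102, 8454 and 17287 CPM along the LPS course, and knock-in cells went from 30.1 CPM to 54.1, 177, 13077 and 28995 CPM. Unlike Ifit1, both genotypes were highest at 8 h, with a log2 fold change of 9.67 ± 0.53. Ifit3, which in humans stabilises IFIT1, went from 3.71 CPM to 2.87, 8.83, 502 and 1720 CPM in WT cells. In knock-in cells it went from 5.02 CPM to 8.58, 23.3, 1027 and 2825 CPM. Its rise at 8 h was 8.99 ± 0.46.

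The enzyme genes rose less than the IFIT genes. Oas1a, the smallest of the 3 by exon length, went from 14.5 CPM to 13.3, 12.1, 81.8 and 318 CPM in WT cells, and from 24.4 CPM to 20.4, 23.1, 116 and 399 CPM in knock-in cells. Oas2 went from 12.0 CPM to 14.0, 12.1, 125 and 536 CPM in WT cells, and from 21.9 CPM to 15.6, 19.4, 159 and 569 CPM in knock-in cells. Oas3, the longest of the 3 enzyme genes, went from 43.9 CPM to 50.9, 46.9, 245 and 1221 CPM in WT cells, and from 69.7 CPM to 62.3, 66.3, 305 and 1384 CPM in knock-in cells. All 3 stayed near their starting level for the first hour and were highest at 8 h, by 4.25 ± 0.18, 5.09 ± 0.18 and 4.55 ± 0.18 on the log2 scale.

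The OAS-like genes differed from each other in size and start. Oasl1 went from 1.73 CPM to 2.57, 14.5, 699 and 1776 CPM in WT cells. In knock-in cells it went from 5.20 CPM to 6.15, 56.1, 2019 and 3146 CPM. Its rise at 8 h was 9.60 ± 0.44, close to those of the IFIT genes. Oasl2 went from 16.0 CPM to 15.4, 17.7, 573 and 1615 CPM in WT cells, and from 27.4 CPM to 31.7, 35.4, 808 and 2016 CPM in knock-in cells, a rise at 8 h of 6.44 ± 0.31.

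**Figure D1:**
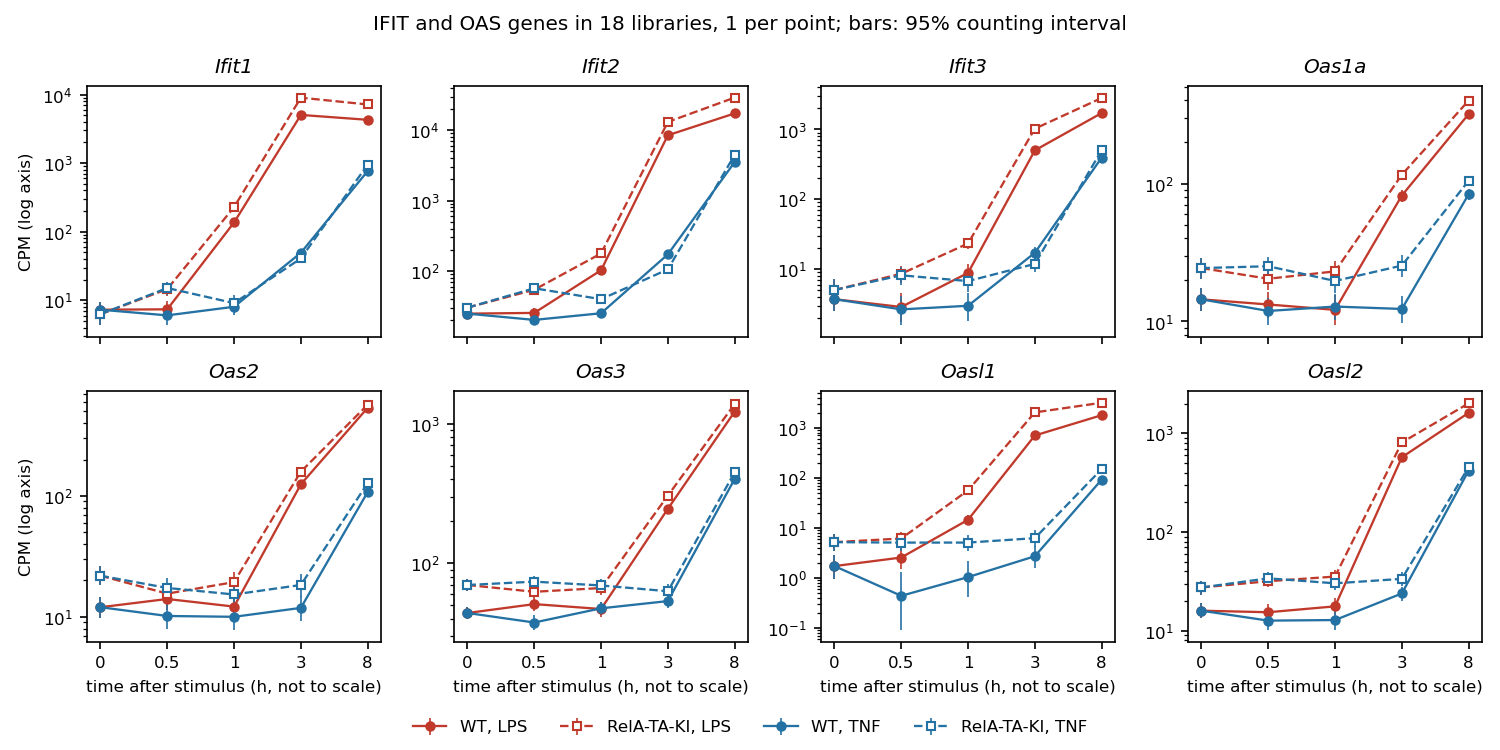
Level of each gene in CPM (log axis) against time after LPS (red) or TNF (blue) in WT (filled circles, solid lines) and RelA-TA-KI libraries (open squares, dashed lines). Each point is 1 library and bars are 95% counting intervals. Ifit1 after LPS is highest at 3 h, and the other 7 genes are highest at 8 h.

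The order of the first rise separated the genes. At 0.5 h of LPS none of the 8 was called (0.875% of all genes higher), none had an unadjusted p under 0.05 by edgeR, and DESeq2 and limma-voom also called 0. At 1 h 4 were called higher, where 4.25% of all genes were. These were Ifit1 (4.66 ± 0.35, adjusted p = 1.2e-05), Oasl1 (3.28 ± 0.42), Ifit2 (2.30 ± 0.40) and Ifit3 (1.79 ± 0.47, adjusted p = 0.046). The call of Ifit3 was lost when either library of the unstimulated, 1 h LPS, 3 h LPS, 8 h LPS, 1 h TNF or 8 h TNF pair was left out (adjusted p up to 0.35), and that of Ifit2 without the unstimulated knock-in library (adjusted p = 0.078), which left 2 of the 4. The remaining 4 were between -0.15 and 0.27. All 8 were called at 3 h (24.8% of all genes) and at 8 h (33.8%), and all 8 rose between 1 and 3 h (19.9%).

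From 3 to 8 h, 7 genes rose further, against 26.6% of all genes, and Ifit1 did not (-0.29 ± 0.27, adjusted p = 0.40). The call of Ifit2 was lost without any of the 3 h or 8 h LPS libraries (adjusted p up to 0.16) and that of Oasl1 without the WT library of either time (up to 0.13). With library totals the adjusted p of Ifit2 was 0.17, and the fewest genes called under any other processing was 5. The 3 h level of Ifit1 was 118% of its 8 h level in WT and 126% in knock-in cells. For Ifit2 it was 48.9% and 45.1%, for Oasl1 39.3% and 64.2%, for Oasl2 35.5% and 40.1%, and for Ifit3 29.2% and 36.4%. The OAS enzymes were the latest, at 25.7% and 29.0% for Oas1a, 23.3% and 27.9% for Oas2, and 20.1% and 22% for Oas3. The 3 h share was higher in the knock-in for 7 of the genes and lower for Ifit2. This difference was read from 1 pair of libraries at each time and was not tested.

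TNF raised the same 8 genes later and less. All 8 passed the test over the 4 times upward (16.7% of all genes), with a median largest change of 4.84 on the log2 scale against -0.0792 over all genes, and each was highest at 8 h. Neither 0.5 h (0.38% of all genes higher) nor 1 h (0.902%) gave a call by edgeR, DESeq2 or limma-voom, and 0 of the 8 had an unadjusted p under 0.05 by edgeR at either time.

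The IFIT genes led again. Ifit1 in WT cells stood at 6.03, 8.06, 49.3 and 767 CPM after 0.5, 1, 3 and 8 h of TNF, and in knock-in cells at 15.1, 9.10, 40.8 and 950 CPM. Ifit2 stood at 20.2, 25.1, 172 and 3520 CPM in WT cells and at 56.7, 39.7, 105 and 4451 CPM in knock-in cells. Ifit3 stood at 2.65, 2.98, 17.1 and 395 CPM in WT cells and at 8.15, 6.74, 11.9 and 503 CPM in knock-in cells. At 3 h these 3 were the called genes (7.6% of all genes higher), at 2.73 ± 0.35, 2.43 ± 0.40 and 1.82 ± 0.47, and in each the WT library was above the knock-in library at that time. The call of Ifit3 was lost without either unstimulated library, either 8 h LPS library or the WT 3 h TNF library (adjusted p up to 0.18). Their changes at 8 h were 6.93 ± 0.37, 7.18 ± 0.48 and 6.70 ± 0.44.

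The other 5 were still near their starting levels at 3 h, between -0.14 and 0.43 on the log2 scale, and had risen by 8 h. Oas1a in WT cells stood at 11.9, 12.8, 12.3 and 83.6 CPM along the TNF course, and in knock-in cells at 25.1, 19.7, 25.4 and 105 CPM. Oas2 stood at 10.2, 10.0, 11.9 and 108 CPM in WT cells and at 17.3, 15.3, 18.3 and 128 CPM in knock-in cells. Oas3 stood at 37.5, 47.4, 53.5 and 402 CPM in WT cells and at 73.7, 69.2, 62.9 and 448 CPM in knock-in cells. In each of these 3 enzyme genes the rise came between 3 and 8 h in both genotypes, to 2.32 ± 0.17, 2.84 ± 0.17 and 2.94 ± 0.17. Oasl1 stood at 0.442, 1.04, 2.72 and 91.8 CPM in WT cells and at 5.10, 5.10, 6.25 and 149 CPM in knock-in cells, a change at 8 h of 5.27 ± 0.41. Oasl2 stood at 12.7, 12.8, 23.9 and 420 CPM in WT cells and at 34.0, 30.2, 33.6 and 456 CPM in knock-in cells, a change at 8 h of 4.41 ± 0.29. All 8 were called at 8 h, against 17.1% of all genes. Between 3 and 8 h all 8 rose (8.71%), whereas between 1 and 3 h 2 did (3.22%), Ifit1 and Ifit2. That count was 0 when the 1 h knock-in library was left out and 1 when the 1 h WT library was.

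**Figure D2:**
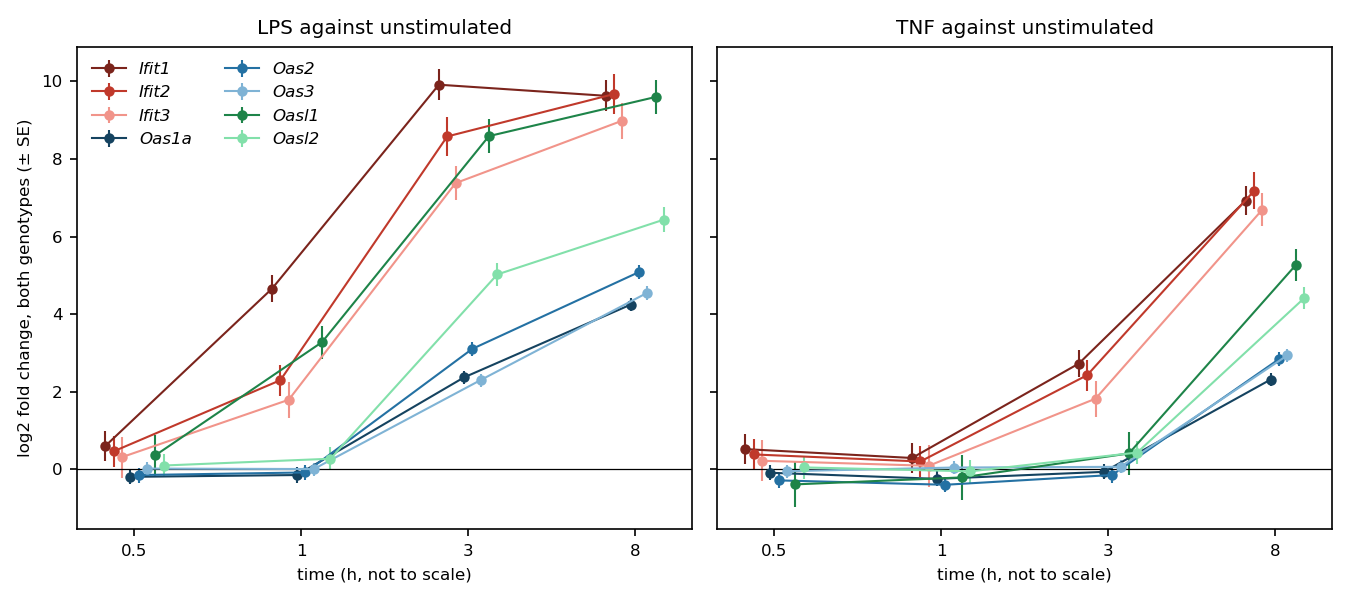
Log2 fold change against unstimulated cells (± SE, both genotypes together, 2 libraries per time) at each time of LPS (left) and TNF (right). After LPS the 3 IFIT genes and Oasl1 have left 0 by 1 h, and after TNF the 3 IFIT genes have left it at 3 h and the other 5 at 8 h.

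LPS levels were above TNF levels for every gene of the families once the responses had begun. Averaged over the 4 matched times all 8 were higher after LPS (23.7% of all genes), with a median difference of 2.08 on the log2 scale. Oasl1 (4.19 ± 0.23) and Ifit1 (3.58 ± 0.16) differed most, Ifit2 (2.71 ± 0.20), Ifit3 (2.41 ± 0.21) and Oasl2 (1.75 ± 0.14) less, and Oas2 (1.49 ± 0.09), Oas1a (1.09 ± 0.09) and Oas3 (0.97 ± 0.08) least. By time, 0 of the 8 were called at 0.5 h (0.0442% of all genes higher, no family gene with an unadjusted p under 0.05 by edgeR, and 0 by DESeq2 and limma-voom). At 1 h 3 were called (0.92% of all genes), Ifit1 (4.37 ± 0.34), Oasl1 (3.49 ± 0.44) and Ifit2 (2.10 ± 0.40). The call of Ifit2 was lost when either library of the unstimulated, 1 h LPS, 3 h LPS, 8 h LPS, 1 h TNF or 8 h TNF pair was left out (adjusted p up to 0.32), and Ifit3 was called without either 3 h TNF library. All 8 were called at 3 h (16.9%) and at 8 h (30%).

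At 3 h the gap was widest. TNF levels were then 0.977% of the LPS level for Ifit1 in WT cells and 0.389% for Oasl1, but 21.8% for Oas3. By 8 h TNF levels had come up to 17.9% (WT) and 13.3% (knock-in) for Ifit1, 20.4% and 15.4% for Ifit2, and 23.0% and 17.8% for Ifit3. The enzymes stood at 26.2% and 26.3% for Oas1a, 20.1% and 22.4% for Oas2 and 32.9% and 32.4% for Oas3, with Oasl2 at 26.0% and 22.6%. Oasl1 stayed far apart, at 5.17% and 4.74%. The change from 3 to 8 h was lower after LPS than after TNF in 6 genes (15.5% of all genes). LPS minus TNF was -4.49 ± 0.40 in Ifit1, -3.85 ± 0.50 in Oasl1, -3.66 ± 0.53 in Ifit2, -3.26 ± 0.47 in Ifit3, -2.56 ± 0.36 in Oasl2 and -1.01 ± 0.23 in Oas2. Of these, Ifit1 did not rise from 3 to 8 h of LPS. Oas3 (-0.62 ± 0.22, adjusted p = 0.054) and Oas1a (-0.50 ± 0.23, adjusted p = 0.13) did not pass. Oas3 passed without the WT 8 h LPS, the knock-in 8 h TNF or either 0.5 h TNF library (adjusted p down to 0.020), and Oas1a without the WT 8 h LPS library (0.029).

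The order of the levels changed with the response. At 8 h of LPS Ifit2 was first, at 4402 CPM per kb in WT and 7384 in knock-in cells, above Ifit1 (1613 and 2699), Ifit3 (986 and 1619) and Oasl1 (681 and 1206), of which each overlapped its neighbour. Oasl2 followed at 253 and 316 CPM per kb, then Oas1a (169 and 212) and Oas3 (173 and 196), which overlapped, and Oas2 was last at 120.5 and 128. At 8 h of TNF Ifit2 (896 and 1134), Ifit1 (289 and 358) and Ifit3 (226 and 288 CPM per kb) again led without overlap, followed by Oasl2 (65.8 and 71.6) and Oas3 (56.8 and 63.4). Oas1a (44.3 and 55.6) and Oasl1 (35.2 and 57.2) overlapped, and Oas2 was last at 24.2 and 28.7. Oasl1 thus moved from rank 8 before stimulation to rank 4 at 8 h of LPS, but to rank 7 at 8 h of TNF.

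**Figure D3:**
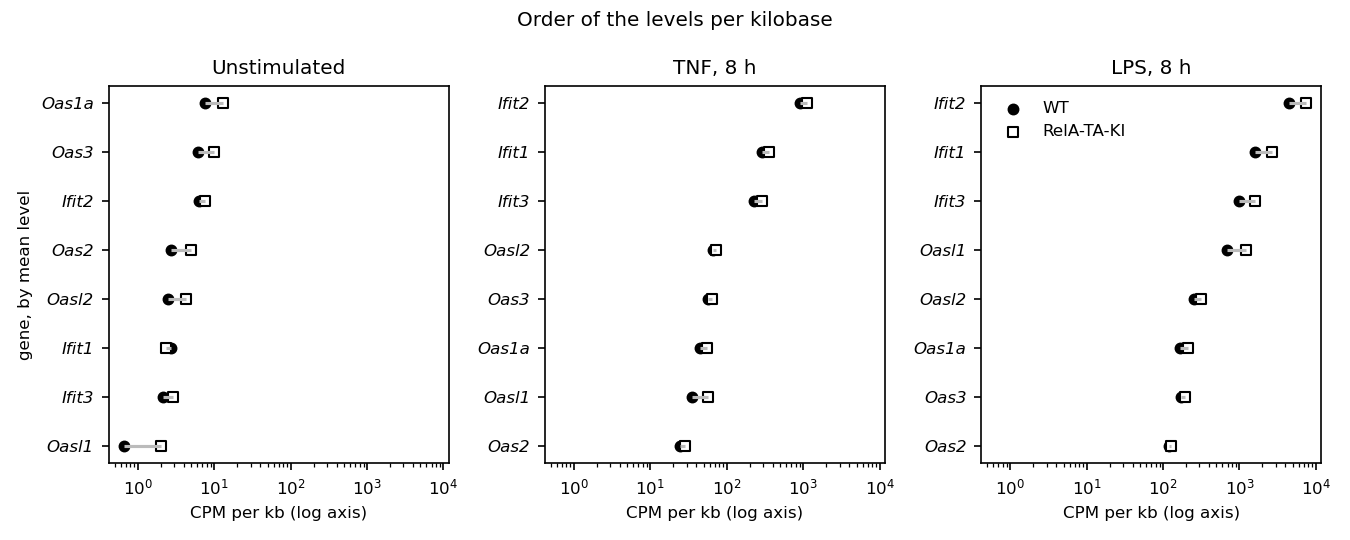
Level in CPM per kilobase of exon (log axis) in unstimulated cells and at 8 h of TNF and of LPS, with genes ordered by the mean of both genotypes. Filled circles are WT and open squares RelA-TA-KI libraries, 1 each. Oas1a, Oas3 and Ifit2 lead before stimulation with overlapping genotype ranges, and Ifit2 and Ifit1 lead at 8 h of both stimuli.

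Most genotype pairs had more family transcript in the knock-in. Over the 9 matched pairs all 8 genes were called higher in RelA-TA-KI, where 10.3% of all genes were, with a median difference of 0.603 on the log2 scale against -0.00467 over all genes. Of the 72 ratios, 8 genes in 9 pairs, 68 were above 1. Within a pair 47.6% to 50.7% of all genes were higher in the knock-in. Oas1a, Oas2, Oas3, Oasl1 and Oasl2 were higher in the knock-in in 9 of 9 pairs, as were 6.68% of all genes. Ifit2 and Ifit3 were higher in 8 (13.9% of all genes in 8 or more) and Ifit1 in 7 (22.9% in 7 or more). These counts depend on the scaling. With library totals at 8 h of LPS, Oas2 stood at 350 CPM in WT and 323 CPM in knock-in cells. Oas3 stood at 798 and 785 CPM there, so both were lower in the knock-in in that pair.

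Oasl1 differed most, at 1.32 ± 0.18 (adjusted p = 0.00052), with ratios of knock-in over WT from 1.63 to 11.5 and a median of 2.89. The highest ratio, at 0.5 h of TNF, rested on 3 WT and 30 knock-in counts, with a 95% counting interval of 3.59 to 59.1. Ifit3 differed by 0.76 ± 0.19, Ifit2 by 0.58 ± 0.18 (adjusted p = 0.049) and Ifit1 by 0.53 ± 0.15 (adjusted p = 0.027). The IFIT calls rested on single libraries more than the others did. The call of Ifit2 was lost in 16 of the 18 fits that left out 1 library (adjusted p up to 0.13) and was made without either 3 h TNF library. That of Ifit1 was lost without any 1 of the 8 LPS libraries (up to 0.086), and that of Ifit3 without the WT 3 h, WT 8 h or knock-in 3 h LPS library (up to 0.057). The ratio of Ifit1 ran from 0.828 to 2.51, that of Ifit2 from 0.612 to 2.81 and that of Ifit3 from 0.693 to 3.08, each lowest at 3 h of TNF and highest at 0.5 h of TNF. The knock-in was below WT in these 3 genes at 3 h of TNF and in Ifit1 before stimulation, and above it in the other 68 values. The 3 h TNF library of the knock-in also had the lowest total of the 18. Among the enzymes Oas1a differed by 0.63 ± 0.08 (adjusted p = 0.00017), Oas2 by 0.43 ± 0.08 and Oas3 by 0.42 ± 0.08, with ratios of 1.25 to 2.11, 1.06 to 1.82 and 1.1 to 1.96. Oasl2 differed by 0.70 ± 0.13, with ratios of 1.09 to 2.68.

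Summed macrophage markers were lower in the knock-in in 9 of 9 pairs (medians of 9830 CPM in WT and 9360 CPM in knock-in libraries). Markers of other cells moved with genotype too. All 4 tested neutrophil markers of 5 listed were lower in the knock-in, as were 1070 of all 11308 genes, with summed levels of 25.2 to 60.7 CPM in WT and 11.1 to 36.8 CPM in knock-in libraries. The 3 tested stromal markers of 4 were also lower, at 97.8 to 189 CPM against 13.7 to 70.9 CPM, and 2 of 3 tested dendritic cell markers were lower, at 2.58 to 8.10 CPM against 0.915 to 4.13 CPM for the summed list of 4. Summed plasmacytoid dendritic markers were at 0.298 to 3.23 CPM in WT and 0.359 to 4.43 CPM in knock-in libraries, and Ncr1, Mcpt4 and Fcer1a were at 0 in all 18. The part of these cells in the genotype difference was not tested, and in bulk RNA fewer cells of a type and less RNA per cell cannot be told apart.

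**Figure D4:**
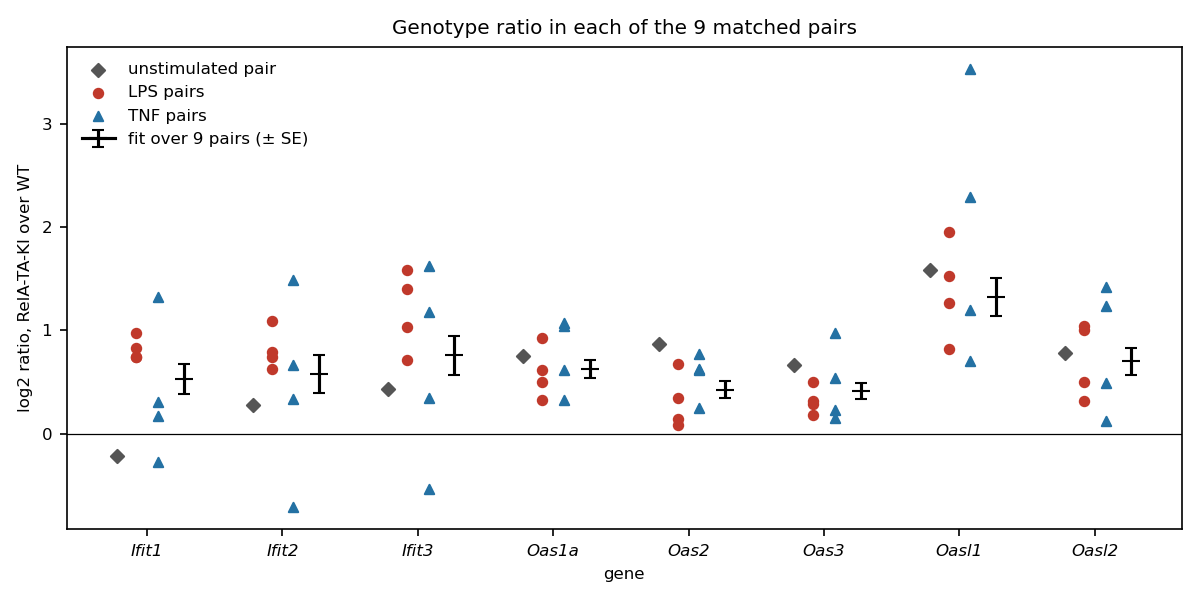
Log2 ratio of RelA-TA-KI over WT for each gene, with 1 point for each of the 9 matched pairs (grey diamonds unstimulated, red circles LPS, blue triangles TNF) and the fitted difference over the 9 pairs ± SE in black. The 4 values under 0 are Ifit1, Ifit2 and Ifit3 at 3 h of TNF and Ifit1 before stimulation.

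By stimulus, 4 genes were called higher in the knock-in after LPS (5.47% of all genes), Oasl1 (1.36 ± 0.26), Ifit3 (1.05 ± 0.24), Ifit1 (0.81 ± 0.17) and Oas1a (0.54 ± 0.13). After TNF 3 were called (2.41%), Oas1a (0.71 ± 0.14), Oas2 (0.51 ± 0.12) and Oas3 (0.46 ± 0.12), while Oasl1 (1.23 ± 0.35, adjusted p = 0.086) and Oasl2 (0.74 ± 0.22, adjusted p = 0.095) had larger estimates that did not pass. The 3 IFIT genes did not pass either, at 0.30 ± 0.18 for Ifit1, 0.40 ± 0.29 for Ifit2 and 0.43 ± 0.27 for Ifit3. Each of these calls depended on single libraries. The counts fell to 0 after LPS without either 3 h LPS library and to 0 after TNF without any of the 0.5 h or 3 h TNF libraries. They fell to 2 after LPS without any of the other LPS libraries, and to 1 after TNF without either 1 h TNF library. The difference of the genotype effect between LPS and TNF was called for 0 of the 8 (0% of all genes), with values from -0.23 to 0.62. None of them had an unadjusted p under 0.05 by edgeR, and DESeq2 and limma-voom called 0. The same held for stimulated minus unstimulated (0% of all genes). That contrast rests on the single unstimulated pair, with standard errors of 0.25 to 0.89. It therefore cannot show that the genotype effect was the same before and after stimulation.

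Late times of LPS, 3 and 8 h together, had 4 genes called higher in the knock-in (8.4% of all genes), Oasl1 (1.18 ± 0.18, adjusted p = 0.0047), Ifit3 (0.87 ± 0.15), Ifit1 (0.79 ± 0.19) and Oasl2 (0.41 ± 0.10). Without either 3 h LPS library 2 were called, and the call of Ifit1 was lost without any 1 of the 8 LPS libraries (adjusted p up to 0.12). Late times of TNF had 0 (3.38%), with 4 under an unadjusted p of 0.05 by edgeR and 0 called by DESeq2 and limma-voom. Oasl1 was called there without any 3 h or 8 h LPS library (adjusted p down to 0.0032), and Oas1a without either 8 h LPS library (0.049). The late effect minus the early one was estimated at -0.94 to -0.26, with 4 genes under an unadjusted p of 0.05 by edgeR (11.8% of all genes). Of these 1 passed (0.0796% of all genes lower), Oasl2 (-0.83 ± 0.12, adjusted p = 0.016). Its knock-in to WT log2 ratio was lower at 3 and 8 h of both stimuli than at 0.5 and 1 h. The call was lost without any 0.5 h library or either 1 h TNF library.

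Genes upstream were read beside the families. Ifnb1, the interferon beta gene, had 2, 506, 131 and 55 counts along the LPS course in WT cells and 6, 699, 827 and 96 in knock-in cells, or 93.1, 27.9 and 17.8 CPM at 1, 3 and 8 h in WT and 137, 189 and 28.4 CPM in knock-in cells. Both genotypes had left baseline at 1 h, and at 3 h the knock-in level stood above WT. Its late difference after LPS was 2.16 ± 0.45 (adjusted p = 0.043). After TNF every library had 0 to 2 counts of Ifnb1, while all 8 family genes rose by 8 h. Of 10 interferons and receptors 5 were tested, of which 4 rose and 1 fell after LPS (4047 and 4112 of all 11308 genes). The receptor chain Ifnar1 changed by 1.23 ± 0.09 at 8 h of LPS and 0.51 ± 0.09 at 8 h of TNF. Ifngr2, of the interferon gamma receptor, changed by 2.18 ± 0.16 at 8 h of LPS, and Ifngr1 by -0.92 ± 0.20.

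Of 8 STAT and IRF genes 7 rose after LPS (35.8% of all genes) and 5 after TNF (16.7%). Stat2, which joins IRF9 at the ISRE, rose by 4.83 ± 0.19 at 8 h of LPS and 3.00 ± 0.18 at 8 h of TNF, and did not pass for genotype (0.13 ± 0.08, adjusted p = 0.28). Irf1, an activator that binds the same element, was at 299, 536, 1763 and 1106 CPM along the LPS course in WT cells and at 18.3, 36.6, 1843 and 1131 CPM in knock-in cells. The WT level was thus far above the knock-in at 0.5 and 1 h and close to it at 3 and 8 h. After TNF Irf1 was at 277, 312, 424 and 337 CPM in WT and at 25.1, 86.1, 184 and 359 CPM in knock-in cells. Over the 9 pairs it did not pass (-1.46 ± 0.59, adjusted p = 0.12). For genotype 4 of the 8 were higher and 1 lower, where 1162 of all 11308 genes (10.3%) were higher and 1070 lower. The higher were Irf5, Irf7, Irf8 and Irf9 (0.22 to 0.49) and the lower was Irf3 (-0.28 ± 0.09). All of these except Irf5 were named after their values were seen.

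Steps that lead to Ifnb1 moved less evenly. Of 8 signalling genes 5 rose and 1 fell after LPS, where 35.8% of all genes rose and 4112 of 11308 fell, and 4 rose after TNF (16.7%). Tbk1, the kinase that activates IRF3, rose by 1.90 ± 0.08 at 8 h of LPS, and its relative Ikbke rose by 3.55 ± 0.19 and was lower in the knock-in (-0.43 ± 0.09, adjusted p = 0.0035). The receptor gene Tlr4 was higher in the knock-in (0.51 ± 0.12, adjusted p = 0.015). It stood at 183 CPM in WT and 211 CPM in knock-in cells before stimulation. The gap was widest at 3 h of LPS, at 104 and 245 CPM, and at 8 h of TNF the knock-in was lower, at 162 and 146.5 CPM. Of 4 genes that dampen interferon signalling 3 rose and 1 fell after LPS. Ptpn1 was lower in the knock-in (-0.32 ± 0.05), and Socs3 did not pass (-1.12 ± 0.64, adjusted p = 0.27). Socs3 stood at 301, 518, 765 and 736 CPM along the LPS course in WT cells and at 16.8, 78.6, 883 and 1378 CPM in knock-in cells, below WT at 0.5 and 1 h and above it at 3 and 8 h.

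The closest relatives rose as well. Of 10 further IFIT and OAS genes 6 were tested, and all 6 rose after LPS (median largest change 6.65, 35.8% of all genes) and after TNF (4.05, 16.7%), where the 8 family genes had medians of 7.71 and 4.84. Ifit1bl1 went from 1.98 CPM to 2410 CPM at 8 h of LPS in WT cells and from 2.33 to 6660 CPM in knock-in cells. Ifit3b reached 566 and 1057 CPM, and Oas1g 85.9 and 138 CPM, both uncertain because of the shared sequence. In the genotype test 3 of the 6 were higher (10.3% of all genes), Oas1g (1.02 ± 0.19), Ifit3b (0.86 ± 0.20) and Oas1c (0.44 ± 0.13), the last named after its value was seen.

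Other antiviral genes rose with them. Of 22 listed interferon-stimulated genes 21 were tested, and all 21 rose after LPS (median 6.10, 35.8% of all genes) and after TNF (median 3.86, 16.7%) and were higher after LPS than after TNF (23.7%). The radical enzyme gene Rsad2 went from 41.3 CPM to 40690 CPM at 8 h of LPS in WT cells and from 55.8 to 49110 CPM in knock-in cells, Samhd1, a nucleotide hydrolase, from 146 to 3360 CPM and from 161 to 4388 CPM, and Parp14 from 85.4 to 5955 CPM and from 114 to 5893 CPM. Genotype was called for 8 of the 21, all higher in the knock-in (10.3% of all genes), with a median of 0.222 against 0.603 for the 8 family genes. Rsad2 was one of them (0.60 ± 0.14), while Samhd1 (0.13 ± 0.06, adjusted p = 0.16) and Parp14 (0.02 ± 0.10, adjusted p = 0.93) did not pass.

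Within the families the courses over the 18 libraries were alike to different degrees. By Pearson correlation of log2 CPM, given as a description over libraries that share stimulus and time, Ifit2 and Ifit3 were the closest pair (0.997), Oas1a and Oas2 followed (0.993), and Ifit1 and Oas3 were the least alike (0.866). Oasl1 was closest to Ifit1 (0.966) and Oasl2 to Oas2 (0.988). Among genes outside all lists the 5 closest to the mean of the 8 were Ifi204 (0.994), Nlrc5 (0.991), Samd9l (0.988), Slfn5 (0.988) and Mndal (0.986). Ifi204 went from 61.9 to 2159 CPM at 8 h of LPS in WT cells and from 73.5 to 2562 CPM in knock-in cells.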

How the data were processed

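The authors deposited raw counts per gene, not normalized, with exon length, for 18 libraries. Per the labels' protocols these came from poly(A) RNA, the KAPA Stranded mRNA-Seq kit and single-end reads of 50 bases. Per the submitters' processing notes reads were handled with cutadapt 1.12, STAR and featureCounts 1.5.0 on mm10, and DESeq2 is also named. No source used here states the annotation release or the strand setting. The test was the robust quasi-likelihood F test of edgeR 4.0.16 (R 4.3.3, TMM factors), with Benjamini-Hochberg adjustment over the 11308 genes that passed filterByExpr (minimum count 10, minimum total 15). Condition entered as a block plus genotype (8 residual degrees of freedom), with genotype split by stimulus or by phase (6), or by both (4). Late minus early compared 3 and 8 h with 0.5 and 1 h. Scripts were tested on simulated counts. Log2 CPM used a prior count of 0.5, and CPM per kb the deposited exon length. Alternatives were DESeq2 size factors, library totals, no filter, 1 CPM in 9 libraries, DESeq2 1.42.0, limma-voom (limma 3.58.1) and leaving out each library. Counting intervals cover counting error only.

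The 8 genes and all lists were chosen with earlier results of these data known, so the lists are described by counts and medians without a test of their own. Named besides the 8 were up to 3 genes of each list with the highest mean level, Ifnb1 and the 5 other genes closest to the families' mean. Of the housekeeping list these were Actb, Hprt and Ppia. Actb stood at 5569 CPM in WT and 6033 CPM in knock-in cells before stimulation, and at 22690 and 32080 CPM at 8 h of LPS. Hprt stood at 133 and 141 CPM at 8 h of LPS, and Ppia at 41.3 and 44.6 CPM. Symbols came from a table of gene identifiers, in which 563 identifiers had none, and promoter sequences from RefSeq. Another gene that the rule named, with its list, is not reported here.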

Additional observations from a re-analysis of the deposited data

Results flagged for a closer look

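The change from 3 to 8 h differed between LPS and TNF in 6 genes. On the log2 scale LPS minus TNF was -4.49 in Ifit1, -3.85 in Oasl1, -3.66 in Ifit2, -3.26 in Ifit3, -2.56 in Oasl2 and -1.01 in Oas2, and edgeR's quasi-likelihood test of the difference itself passed in each. The genotype effect of Oasl2 was smaller at late than at early times (-0.83, adjusted p = 0.016), and this call was made under 18 of 24 alternatives. None of the 8 sets of 9 log2 genotype ratios was flagged by Dixon's test, which chance flags in about 1 of 20 sets. On the plain scale the highest ratio of Oasl1, 11.5 at 0.5 h of TNF, stood apart from its next highest, 4.88 at 1 h of TNF. It rested on 3 WT counts.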

How the results depend on the processing

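The labels give no replicate numbers, so no block on them could be tried, and the pairing of the genotypes by condition was already part of the test. Over 24 alternatives the 8 genes' test values numbered 5360, of which 5166 kept their side of the threshold, 152 lost the call, 42 gained one and 0 reversed. A reversal was counted only where a value was called, so the 5166 include uncalled values that changed sign. Counts of genes called higher in the knock-in over 9 conditions went from 8 to 5 without a filter and ranged from 5 to 8 when libraries were left out (5 without the WT 3 h, WT 8 h or knock-in 3 h LPS library). After LPS the 4 became 2 with library totals and 1 without a filter, and 0 to 6 when libraries were left out. After TNF the 3 became 1 with library totals, 5 with DESeq2 and 1 with limma-voom, and 0 to 4 when libraries were left out. Late LPS went from 4 to 2 with library totals and 2 to 5 when libraries were left out, and late TNF from 0 to 1 without a filter and 0 to 2. Late minus early ranged from 0 to 1, 1 h of LPS from 2 to 4, and 3 against 1 h of TNF from 0 to 3. The count for 8 against 3 h of LPS ranged from 5 to 7. The cause of these changes was not tested.

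Counts over all genes moved by over 1.5 times in some comparisons. With library totals 3 against 1 h of LPS went from 4271 to 6559, LPS against TNF at 3 h from 3539 to 6651 and late minus early from 45 to 29. DESeq2 gave 67 in place of 43 at 0.5 h of TNF, 190 in place of 121 at 1 h, 18 in place of 5 for LPS against TNF at 0.5 h (11 without a filter and 12 with limma-voom), 124 in place of 45 for late minus early and 422 in place of 664 for late TNF. Without a filter late minus early gave 147. For the genotype effect of LPS minus TNF, 0 became 3 without a filter and 4 with DESeq2, and for stimulated minus unstimulated 1 with each. Oasl1 before stimulation rests on 14 and 29 counts, so its folds are limited by depth.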
